A study of Mus musculus with 8 samples.

Results

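The 7 genes followed here are widely used as identity markers of tissue-resident macrophages, the phagocytes that live long term in an organ, and were read in macrophages sorted from mouse pancreas tumours. They are Lyve1, Folr2, Mrc1, Cd5l, Sepp1 (Selenop in RefSeq), Cbr2 and Wwp1. They were taken by name, as every non-control probe whose gene name in the scanner files was one of the 7, and this gave 10 probes of 56605 on the array, for 7 genes of 28003 tested. Expression was measured on 1-colour Agilent arrays in 4 MHCII-high and 4 MHCII-low samples, named for how much MHC class II, the molecule that shows peptides to helper T cells, they carried. Both groups came from female mice of the strain written FvBn, aged 8 to 10 weeks, that carried implanted tumours, and cells went by flow sorting straight into a lysis solution. The labels give no genotype, gate other than MHCII, or tumour line for either group, and the series' design text, which names wild-type, KPC and FLT3-CRE/LSL-YFP mice and both normal pancreas and tumour, does not tie the 8 samples to any of these. In the sample titles the numbers 20435, 20436, 20439 and 20442 occur once in each group, with no word on what they mark. No label says whether samples of a group were taken from different animals, so each p-value reflects the spread among these samples alone and that spread may be technical.

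Resident macrophages of many tissues are seeded before birth and maintain themselves there, while monocytes from the blood enter inflamed tissue and tumours and become macrophages that often carry much MHC class II. Resident cells lie along vessels and in connective tissue, where they take up matrix, vitamins, lipoproteins and dying cells, and some of the genes followed here belong to that work. Lyve1, Folr2 and Mrc1 encode uptake receptors, Cd5l and Sepp1 secreted proteins, and Cbr2 and Wwp1 intracellular enzymes. In bulk RNA of a sorted population, fewer cells that carry a transcript and less transcript per cell cannot be told apart.

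Each array carries the genes as single-stranded 60-base probes, and 3 of the 10 are shown whole, as the files give them: the probes behind the Folr2 and Cbr2 calls, and a second Wwp1 probe that crosses an exon junction, while the Wwp1 call comes from another, brighter probe. The Folr2 probe lies at chr7:108988771-108988830 on the minus strand and the Cbr2 probe at chr11:120592059-120592118 on the minus strand, both on mm9. The Wwp1 probe A_52_P165455, at chr4:19550344-19554813 on the minus strand, is spread over 4470 bases of the genome and therefore crosses at least 1 exon junction.
Folr2 A_51_P162671: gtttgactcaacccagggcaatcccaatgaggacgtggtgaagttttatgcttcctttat
Cbr2 A_55_P2122604: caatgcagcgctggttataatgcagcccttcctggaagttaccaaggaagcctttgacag
Wwp1 A_52_P165455: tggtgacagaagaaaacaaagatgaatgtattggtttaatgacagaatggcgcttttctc
The remaining probes lie on mm9 at chr7:117994171-117994230 (minus strand) for Lyve1, chr2:14253273-14253332 (plus) for Mrc1, chr3:87174823-87174882 (plus) for Cd5l, chr15:3230418-3230477 (plus) for Sepp1, chr11:120590825-120590884 (minus) for the second Cbr2 probe, and chr4:19536481-19536540 and chr4:19538789-19538848 (minus) for the other Wwp1 probes. Exon and UTR annotation of mm9 was not used here.

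RefSeq promoter windows of GRCm38.p6, from 250 bases before to 50 after an annotated start, were at hand for 5 of the 7 genes, with 2 windows for Folr2 and 3 overlapping ones for Sepp1. 1 window each of 4 genes is printed as an example, leaving out Sepp1 with its 3 overlapping starts, and capitals mark, on either strand, AGAGGAAG, the core of sites bound by PU.1 (the ETS factor of myeloid cells), and TGCTGA, a site of MAF (a factor of resident macrophages).
Cd5l chr3:87357631-87357930 plus strand: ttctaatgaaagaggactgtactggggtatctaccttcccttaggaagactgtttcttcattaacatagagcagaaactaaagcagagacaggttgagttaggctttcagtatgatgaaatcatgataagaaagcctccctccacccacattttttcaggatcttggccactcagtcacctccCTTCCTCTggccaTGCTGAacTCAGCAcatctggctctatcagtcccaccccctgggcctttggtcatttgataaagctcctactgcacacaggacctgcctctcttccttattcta
Mrc1 chr2:14229164-14229463 plus strand: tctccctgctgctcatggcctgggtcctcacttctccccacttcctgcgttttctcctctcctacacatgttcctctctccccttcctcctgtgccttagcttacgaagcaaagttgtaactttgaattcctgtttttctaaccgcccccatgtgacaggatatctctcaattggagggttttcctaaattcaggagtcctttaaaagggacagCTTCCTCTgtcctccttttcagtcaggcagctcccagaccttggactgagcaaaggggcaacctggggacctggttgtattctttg
Folr2 chr7:101845282-101845581 minus strand: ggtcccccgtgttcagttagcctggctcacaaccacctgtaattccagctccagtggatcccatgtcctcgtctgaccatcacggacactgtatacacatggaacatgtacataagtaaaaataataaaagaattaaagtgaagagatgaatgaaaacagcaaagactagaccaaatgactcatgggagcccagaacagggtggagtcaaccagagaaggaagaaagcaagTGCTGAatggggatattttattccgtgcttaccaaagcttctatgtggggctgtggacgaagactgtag
Cbr2 chr11:120731972-120732271 minus strand: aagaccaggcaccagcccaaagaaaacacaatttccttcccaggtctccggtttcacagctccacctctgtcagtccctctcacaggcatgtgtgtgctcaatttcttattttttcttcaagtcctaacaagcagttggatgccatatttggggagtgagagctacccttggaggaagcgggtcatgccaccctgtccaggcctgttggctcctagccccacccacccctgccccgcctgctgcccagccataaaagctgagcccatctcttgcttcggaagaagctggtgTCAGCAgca
AGAGGAAG was found in 4 of the 8 windows of these genes and in 4.55% of all 32851 windows. The windows belong to 3 of the 5 genes (Cd5l at -67, Mrc1 at -36 and Sepp1 at -180 from the start). The same Sepp1 site lies at -224 in an overlapping window. TGCTGA was found in 4 of the 8 windows, from 3 genes, and in 19.5% of all windows. It lay in Cd5l at -54 and -46 facing each other, and in Cbr2 at +42. In Folr2 it lay at -19 in the window printed and -220 in the other. The shorter ETS letters GAGGAA, which every AGAGGAAG contains, were in 5 of the 8 windows, from 4 genes, and in 28.3% of all windows. TGANTCA of AP-1 was found in Folr2 (7.81% of all windows) and TATAAA in Sepp1 (13.6%), while AGATAA of GATA factors (11.2%), TTCNNNGAA of STAT factors (8.3%), CACGTG of MITF and TFE3 (7.15%) and the direct repeat of liver X receptors (0.0152%) were in none of these windows. These matches describe letters in the windows and are not measured binding.

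The 8 arrays shared 1 slide and 1 scan time, and between 38758 and 42121 probes of an array were well above background (68.5% to 74.4%). Row 1 of the slide held MHCII-high 20436 with MHCII-low 20435, 20436 and 20439, and row 2 held the other 3 MHCII-high arrays with MHCII-low 20442, so the row is given as a batch beside the results. Across genes, which do not stand in for replicates, pairs of arrays correlated at 0.949 to 0.971 within MHCII-high, 0.951 to 0.968 within MHCII-low and 0.908 to 0.961 between the groups. Pan-macrophage genes were well measured in both groups, with summed signals of 367 to 470 times the array's 75th percentile on MHCII-high arrays and 473 to 611 times on MHCII-low arrays, and 2 of 15 were lower in MHCII-high cells: Adgre1, whose product is the classical surface antigen of mouse macrophages, by 1.71 (adjusted p = 0.0046), and Ctsd, a lysosomal protease, by 0.96 (adjusted p = 0.0278). Values below are log2 signal relative to the 75th percentile of the array, so that 0 is the level of that percentile and each unit is a doubling. Levels are compared for 1 probe across arrays, never between probes. Fold changes are MHCII-high over MHCII-low from limma, and a gene passed the test at a Benjamini-Hochberg adjusted p under 0.05 over all 28003 genes.

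The comparison asks how genes of resident macrophages differ between the sorted samples with much and with little MHC class II. Of the 7 genes, 4 (Folr2, Cbr2, Cd5l and Wwp1) passed the test, all lower in MHCII-high cells, by 2.58-fold (Wwp1) to 13.4-fold (Cd5l). Over all genes 2.3% passed in that direction, 2.62% in the other and 4.92% in either. In all 7 genes and all 10 probes every MHCII-high array read below every MHCII-low array, which held for 7.14% of all genes. Lyve1, Mrc1 and Sepp1 did not pass the test, with log2 fold changes of -4.13, -0.70 and -0.49. The median over the 7 was the -1.97 of Folr2, beside -0.01 over all genes, and ranked from the most negative fold change the 7 stood at places 15 (Lyve1), 21 (Cd5l), 251 (Cbr2), 252 (Folr2), 617 (Wwp1), 2187 (Mrc1) and 3901 (Sepp1) of 28003.

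**Figure D1:**
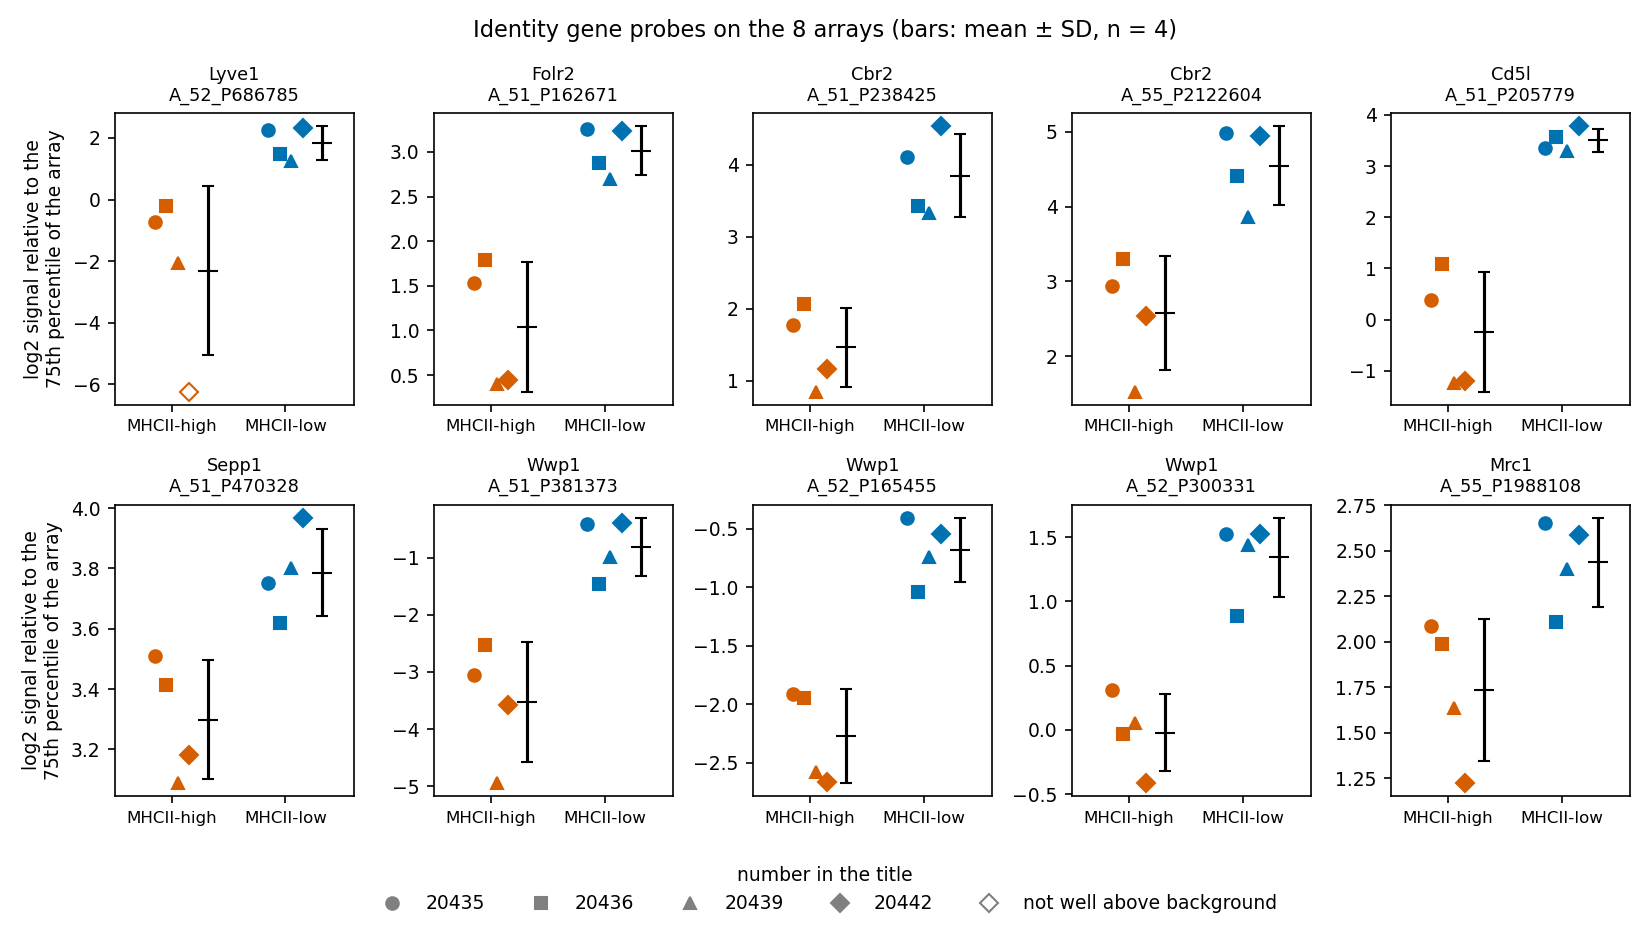
Log2 signal relative to the array's 75th percentile for each of the 10 probes, with MHCII-high arrays (orange) left of MHCII-low arrays (blue), a marker shape for each number in the titles, an open marker for a spot not well above background, and bars for mean ± SD (n = 4). In every panel the groups do not overlap, and the vertical scale differs between panels.

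Lyve1 encodes a receptor for hyaluronan, a sugar polymer of the matrix, and is carried by perivascular resident macrophages as well as by lymphatic endothelium. Its signal was -0.71, -0.22, -2.05 and -6.23 on MHCII-high arrays 20435, 20436, 20439 and 20442, against 2.26, 1.47, 1.24 and 2.34 on the MHCII-low arrays in the same order of numbers, which is kept for every gene below. The MHCII-low arrays ran from 1.24 to 2.34, whereas the MHCII-high arrays were far more widely spread and MHCII-high 20442 was not well above background. The means were -2.30 ± 2.73 in MHCII-high and 1.83 ± 0.55 in MHCII-low (SD, n = 4 each), and the log2 fold change of -4.13 ± 1.18 (SE, 95% interval -6.81 to -1.45) did not pass the test (adjusted p = 0.0893). Without the dim array MHCII-high 20442 it was -2.82 and passed (adjusted p = 0.0305), and after normexp background correction of the raw means it was -3.03 and passed (adjusted p = 0.0032).

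Lymphatic endothelial markers were read beside Lyve1. Of 6, 4 were measured and 1 passed, Pdpn (podoplanin, also made by macrophages and stromal cells), lower in MHCII-high by 0.94 (adjusted p = 0.032). Prox1, the master factor of lymphatic endothelium, differed by -0.05, Reln by -0.02 and Ccl21a by 0.61, and the list median was -0.03. Flt4 and Mmrn1 were not well above background on enough arrays. The 4 markers summed to 2.92 to 4.78 times the 75th percentile in MHCII-high and 5.97 to 7.50 times in MHCII-low. Those sums mostly reflect Pdpn, the brightest of the 4, with means of 1.66 in MHCII-high and 2.60 in MHCII-low. The part of lymphatic endothelium in the Lyve1 difference was not tested. Among 12 measured hyaluronan receptors and enzymes, 3 passed as lower and 1 as higher in MHCII-high, with a median of -0.40. The lower ones were Layn (layilin), by 3.04-fold, Cemip2 (TMEM2, a cell-surface hyaluronidase), by 2.65-fold, and Stab1 (stabilin-1, a scavenger receptor), by 1.88-fold (adjusted p = 0.0181, 0.0067 and 0.0497). The fold change of Cemip2 was -0.37 with normexp and between -0.59 and -0.17 in 2 dimmer probes. Hyal2, a hyaluronidase, was 2.14-fold higher in its brightest probe (adjusted p = 0.034) and at a log2 fold change of -1.36 in its other probe, so it has no settled direction. Cd44, the main hyaluronan receptor of leukocytes, differed by -0.13 (adjusted p = 0.717).

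Folr2 encodes folate receptor beta, a lipid-anchored receptor that takes up folate and marks resident macrophages in several tissues. It read 1.54, 1.78, 0.40 and 0.44 on MHCII-high arrays, against 3.25, 2.87, 2.70 and 3.23 on MHCII-low arrays. Arrays 20439 and 20442 were the low ones of the MHCII-high group, and the highest MHCII-high array stayed 0.91 below the lowest MHCII-low array. Means were 1.04 ± 0.72 in MHCII-high and 3.01 ± 0.27 in MHCII-low (SD, n = 4 each), a fall of 3.93-fold (95% interval 2.27 to 6.78, adjusted p = 0.0174). The call was lost without MHCII-high 20439 (adjusted p = 0.0505) or MHCII-low 20435 (adjusted p = 0.0528), at log2 fold changes of -1.76 and -1.89.

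Of 9 genes of folate uptake and use other than Folr2, 1 passed: Slc46a1, the proton-coupled folate transporter, fell by 1.16 (adjusted p = 0.0033), with means of -0.01 ± 0.07 in MHCII-high and 1.15 ± 0.09 in MHCII-low (SD, n = 4 each). Its second probe fell by 1.26 (adjusted p = 0.0113 over probes). The reduced folate carrier Slc19a1 did not pass, at -0.14 (adjusted p = 0.662), and the median over these genes was -0.10.

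Mrc1 encodes the mannose receptor CD206, an endocytic lectin of resident and alternatively activated macrophages. It read 2.09, 1.99, 1.64 and 1.22 on MHCII-high arrays, against 2.65, 2.11, 2.40 and 2.59 on MHCII-low arrays. The groups did not overlap, but the closest arrays, MHCII-high 20435 and MHCII-low 20436, lay 0.02 apart. Means were 1.73 ± 0.39 in MHCII-high and 2.43 ± 0.24 in MHCII-low (SD, n = 4 each), and the log2 fold change of -0.70 ± 0.23 (SE, 95% interval -1.22 to -0.19) did not pass the test (adjusted p = 0.126). None of the other 3 genes of its family passed: Mrc2 differed by -1.63 (adjusted p = 0.332), Pla2r1 by -0.61 (adjusted p = 0.289) and Ly75 (DEC-205, found on dendritic cells) by 2.32 (adjusted p = 0.224), with Ly75 measurable in 3 of the 4 MHCII-high and 2 of the 4 MHCII-low samples. A second Mrc2 probe differed by 0.44, in the opposite direction.

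Mrc1 is also counted with the genes of alternative activation, the response of macrophages to interleukins 4 and 13. Of 17 others, 4 passed as higher and 1 as lower in MHCII-high, with a median of 0.23, so those that passed did not share a direction. Dendritic cell markers, given below, were also higher in MHCII-high, and their part in this list was not tested. Pdcd1lg2 (PD-L2) was higher by 2.98 and the chemokine Ccl17 by 2.92 (adjusted p = 0.0011 and 0.0019), Mgl2 (a lectin also found on dendritic cells) by 0.97 (adjusted p = 0.0151), and Ccl22, which was dim on all 4 MHCII-low arrays, was at least 2.48-fold higher (adjusted p = 0.0005). Chil4, a chitinase-like protein, fell by 2.42 (adjusted p = 0.0186), and Arg1 and Chil3 differed by -1.25 and -1.58 without passing (adjusted p = 0.0633 and 0.0576).

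Cd5l encodes a secreted scavenger-receptor protein (AIM) that protects macrophages from death and circulates with IgM. Its signal was 0.38, 1.09, -1.24 and -1.20 on MHCII-high arrays, against 3.35, 3.58, 3.30 and 3.78 on MHCII-low arrays. The MHCII-low values were tight, the MHCII-high values fell into a higher pair (20435 and 20436) and a lower pair (20439 and 20442), and a gap of 2.21 separated the groups. Means of -0.24 ± 1.17 in MHCII-high and 3.50 ± 0.22 in MHCII-low (SD, n = 4 each) gave a fall of 13.4-fold (95% interval 5.97 to 30.1, adjusted p = 0.0072). This call held without any single array (largest adjusted p = 0.0257).

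Other genes of the scavenger receptor cysteine-rich family moved less uniformly. Of 13, 2 passed as lower, Msr1 by 1.22 and Marco by 0.91 (adjusted p = 0.0146 and 0.0391), both uptake receptors for modified lipoproteins or microbes, and 1 as higher, Cd6 by 0.84 (adjusted p = 0.0364), a receptor of lymphocytes. A dimmer Msr1 probe, at -1.38, did not pass (adjusted p = 0.07 over probes). The median was -0.62. Cd163, the haemoglobin receptor of resident macrophages, differed by -1.82 in its brightest probe (adjusted p = 0.0613) and passed in its other probe, at -3.00 (adjusted p = 0.0101).

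Sepp1 encodes selenoprotein P, a secreted carrier of selenium. It read 3.51, 3.41, 3.09 and 3.18 on MHCII-high arrays, against 3.75, 3.62, 3.80 and 3.97 on MHCII-low arrays. The groups did not overlap, with the nearest arrays 0.11 apart, and the spread within each group was the smallest of the 7 genes. Means were 3.30 ± 0.20 in MHCII-high and 3.79 ± 0.14 in MHCII-low (SD, n = 4 each), and the log2 fold change of -0.49 ± 0.15 (SE, 95% interval -0.84 to -0.13) did not pass the test (adjusted p = 0.123). None of 29 other selenoproteins and selenoprotein P receptors passed with limma at this threshold, with a median of -0.16. Gpx4, which clears lipid peroxides, differed by -0.56 (adjusted p = 0.0635), Gpx1, the main cytosolic glutathione peroxidase, by -0.16 and Selenov by -0.16.

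Cbr2 encodes a mitochondrial carbonyl reductase known from mouse lung and from resident macrophages. Its brighter probe read 2.94, 3.30, 1.53 and 2.53 on MHCII-high arrays, against 4.98, 4.41, 3.86 and 4.94 on MHCII-low arrays, and the second probe 1.77, 2.07, 0.85 and 1.16 on MHCII-high arrays, against 4.11, 3.42, 3.33 and 4.53 on MHCII-low arrays. Both probes had their lowest value of each group in 20439 and kept the groups apart. The brighter probe had means of 2.57 ± 0.76 in MHCII-high and 4.55 ± 0.52 in MHCII-low (SD, n = 4 each), a fall of 3.93-fold (95% interval 2.07 to 7.47, adjusted p = 0.032). On the log2 scale the second probe fell by 2.39 (adjusted p = 0.0101), where 2.46% of all probes passed as lower. Leaving out 1 of 5 arrays ended the call of the brighter probe (MHCII-high 20439 or 20442, or MHCII-low 20435, 20436 or 20442, adjusted p from 0.0553 to 0.0859), whereas the second probe passed without any single array (largest adjusted p = 0.0336). None of 8 other carbonyl reductases passed, with a median of -0.31, among them Akr1a1 at -0.18, Dcxr at -0.03 and Akr1b3 at -0.23.

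Wwp1 encodes a ubiquitin ligase of the NEDD4 family, which tags proteins for degradation or sorting. Its brightest probe read 0.31, -0.04, 0.05 and -0.41 on MHCII-high arrays, against 1.52, 0.89, 1.44 and 1.53 on MHCII-low arrays. The junction-spanning probe printed above read -1.91, -1.94, -2.57 and -2.66 on MHCII-high arrays, against -0.41, -1.04, -0.74 and -0.54 on MHCII-low arrays. The third probe read -3.05, -2.52, -4.95 and -3.58 on MHCII-high arrays, against -0.41, -1.46, -0.98 and -0.40 on MHCII-low arrays. All 3 probes kept the groups apart, and MHCII-low 20436 was the lowest MHCII-low array in each. Means of the brightest probe were -0.02 ± 0.30 in MHCII-high and 1.34 ± 0.31 in MHCII-low (SD, n = 4 each), a fall of 2.58-fold (95% interval 1.84 to 3.62, adjusted p = 0.0119), and it passed without any single array (largest adjusted p = 0.0409). On the log2 scale the other probes fell by 1.59 and 2.71 (adjusted p = 0.0101 and 0.0214). None of 10 other genes of NEDD4 ligases and their adaptors passed, with a median of -0.20: the closest relative Wwp2 differed by -0.17, Nedd4 by -0.12 and the adaptor Ndfip1 by -0.22.

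**Figure D2:**
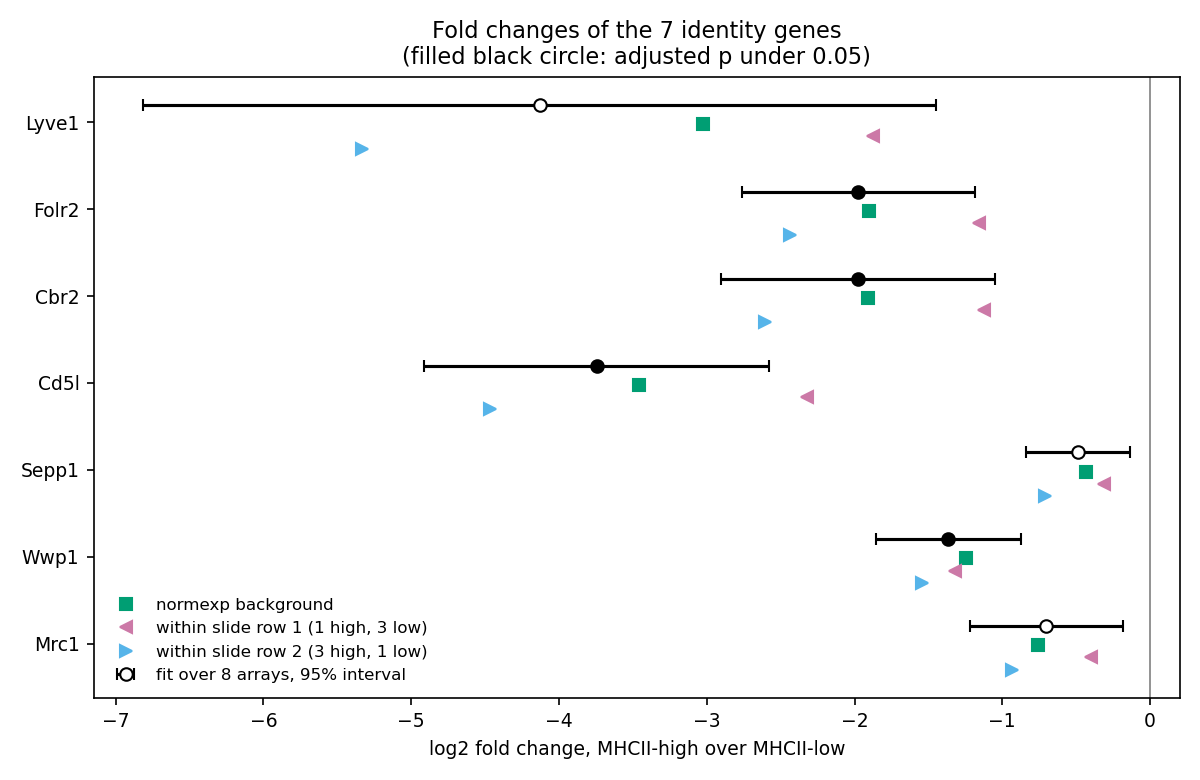
Log2 fold changes, MHCII-high over MHCII-low, of the 7 genes from the fit over 8 arrays with 95% intervals (black, filled where the adjusted p was under 0.05), after normexp background correction (squares) and within each slide row (triangles). All values lie below 0, which for the fit and the rows follows from groups that did not overlap. Within-row values were nearer to 0 in row 1 than in row 2 for each gene.

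The size of the difference varied with the array and with the slide row. Because the groups did not overlap in any of the 10 probes, the MHCII-high value was necessarily below the MHCII-low value at each number and in each row. In all 10 probes the smallest of the 4 differences by number was at 20436. In 9 of 10 probes the 2 lowest MHCII-high arrays were 20439 and 20442. Within row 1, which holds MHCII-high 20436 alone, differences were -1.87 for Lyve1, -2.32 for Cd5l, -1.16 for Folr2, -1.12 for Cbr2, -1.32 for Wwp1, -0.40 for Mrc1 and -0.31 for Sepp1. Within row 2, which holds 1 MHCII-low array, they were -5.33, -4.46, -2.44, -2.61, -1.55, -0.94 and -0.71 in the same order. With the row as a block, Cd5l (-3.39, adjusted p = 0.0367) and Wwp1 (-1.43, adjusted p = 0.0457) passed, Folr2 (-1.80, adjusted p = 0.0815) and the brighter Cbr2 probe (-1.86, adjusted p = 0.12) did not, and the second Cbr2 probe did (-2.41, adjusted p = 0.0453). The same block took the genes passing in either direction to 452, against 1378 without it. Row 1 holds a single MHCII-high array and row 2 a single MHCII-low array, so within each row the difference rests on that array.

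A further 30 genes of resident macrophages were read beside the 7. In MHCII-high cells 16 passed as lower and 0 as higher, with a median of -1.35. Counting the same way with the slide row as a block gave 6, and leaving out MHCII-high 20439 or MHCII-high 20442 gave 7 and 9. Slc40a1, the iron exporter ferroportin, fell by 5.11 in its bright probe (-3.07 with normexp; adjusted p = 0.0308, bright enough to measure in 3 of the 4 MHCII-high samples) and differed by -0.89 in a dim one. Cd209b, a lectin of marginal-zone macrophages, did not rise well above background in MHCII-high cells, on 0 of 4 arrays, and was at least 8.54-fold lower (adjusted p = 0.0023). Fcna (a ficolin), F13a1 (coagulation factor XIII A chain) and Ednrb (endothelin receptor B) fell by 2.67, 2.59 and 2.31 (adjusted p = 0.011, 0.0058 and 0.0148). Among the brightest genes that did not pass were Pltp at -0.35 and Hmox1, a haem-degrading enzyme, at -0.76. Stab1, Marco and Cd163, given above, are among the 30. These genes, like the 7, were chosen with earlier results of the same data known, and their counts are a description.

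**Figure D3:**
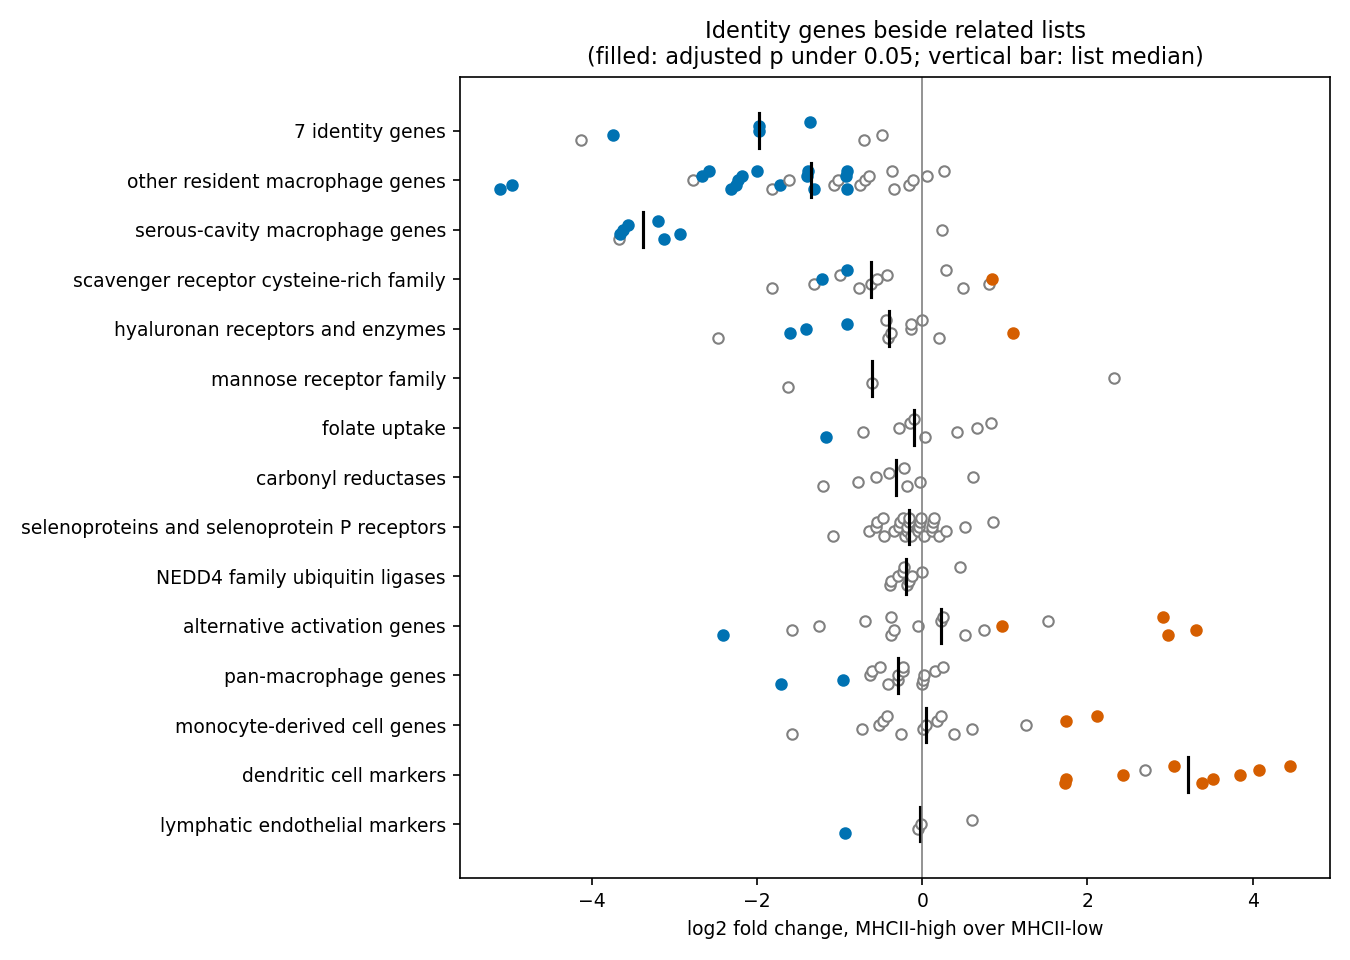
Log2 fold changes, MHCII-high over MHCII-low, of the measured genes of each list, filled where the adjusted p was under 0.05 (blue lower, orange higher) and with a vertical bar at the list's median. The 7 identity genes and 30 other resident macrophage genes have medians of -1.97 and -1.35, while pan-macrophage genes have -0.29 and dendritic cell markers 3.21.

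Serous-cavity macrophage genes, which mark the resident cells of the peritoneum and pleura, moved with the 7 genes: 6 of 8 passed as lower in MHCII-high, with a median of -3.38, and the list summed to 4.02 to 13.2 times the 75th percentile in MHCII-high and 45.6 to 60.3 times in MHCII-low. Serpinb2 (a protease inhibitor), Prg4 (lubricin), Alox15 (a lipoxygenase) and Selp (P-selectin) fell by 3.66, 3.56, 3.20 and 3.13 (adjusted p = 0.0077, 0.0113, 0.0044 and 0.0021). Gata6, the factor that defines these cells, fell by 3.62 in its brighter probe (adjusted p = 0.0469, with a fold change of -1.98 under normexp) and differed by 1.17 in a dimmer one (adjusted p = 0.503). Fabp7 at -3.68 and the brightest Garnl3 probe at 0.24 did not pass (adjusted p = 0.133 and 0.546). A dimmer Garnl3 probe passed as lower (adjusted p = 0.0006 over probes), with no fold given because it was measurable on 4 of the 8 arrays, so Garnl3 has no settled direction. Cd5l is also made by serous-cavity macrophages, and the part of such cells in the differences of the 7 genes was not tested.

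Markers of other cells were read for the same reason. Dendritic cell markers went the other way, with 9 of 10 higher in MHCII-high, a median of 3.21 and sums of 18.4 to 38.1 times the 75th percentile in MHCII-high and 3.11 to 4.29 times in MHCII-low. Flt3, the growth factor receptor of dendritic cells, was higher by 4.45, Itgae (CD103) by 4.08, Clec9a by 3.84, Ccr7 by 3.52 and Dpp4 by 3.38 (adjusted p from 0.0006 to 0.0143), each in its brightest probe. Dimmer probes did not pass for Flt3, at 0.24, for Dpp4, at -0.01, and for Clec9a, at 4.33 (adjusted p = 0.79, 0.985 and 0.0539 over probes). Xcr1, measured above background in 3 of the 4 MHCII-high and 1 of the 4 MHCII-low samples, did not pass. Of 15 genes of monocyte-derived cells, 2 passed as higher, Itgax (CD11c) by 2.11 and Plac8 by 1.74 (adjusted p = 0.0047 and 0.0082), with a list median of 0.04 and sums of 204 to 258 times in MHCII-high and 246 to 294 times in MHCII-low. Fibroblast markers had 0 of 7 past the test, a median of -0.95 and sums of 10.4 to 74.3 times in MHCII-high and 33.4 to 88.8 times in MHCII-low. A single gene passed in each of 3 further lists: Cldn5, higher by 1.75 (1.05 with normexp), of 5 measured blood endothelial markers, Cdh1, higher by 1.72, of 10 epithelial and acinar markers, and Ccr3, lower by 4.20, of 10 granulocyte and mast cell markers. The part of these cells in the differences of the 7 genes was not tested.

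Averaged over the 7 genes on each array, the log2 level was 1.44, 1.62, 0.49 and -0.07 on MHCII-high arrays, against 3.11, 2.71, 2.68 and 3.19 on MHCII-low arrays. Dendritic cell markers averaged 0.03, 0.95, 1.21 and 1.48 on MHCII-high arrays, against -2.58, -1.89, -1.95 and -2.27 on MHCII-low arrays. Among the MHCII-high arrays 20442 was lowest in the identity genes (-0.07) and highest in the dendritic cell markers (1.48). The -0.07 includes the Lyve1 value of -6.23 on MHCII-high 20442, a spot not well above background. The lowest place of 20442 in the identity genes rests on that spot. Array 20435 was lowest in the dendritic cell markers (0.03) and stood at 1.44 in the identity genes, where the highest MHCII-high array stood at 1.62. Whether the identity genes and the dendritic cell markers vary together over these arrays was not tested. Pan-macrophage genes averaged 4.41, 4.17, 4.05 and 4.13 on MHCII-high arrays, against 4.53, 4.44, 4.45 and 4.79 on MHCII-low arrays, a far narrower range.

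**Figure D4:**
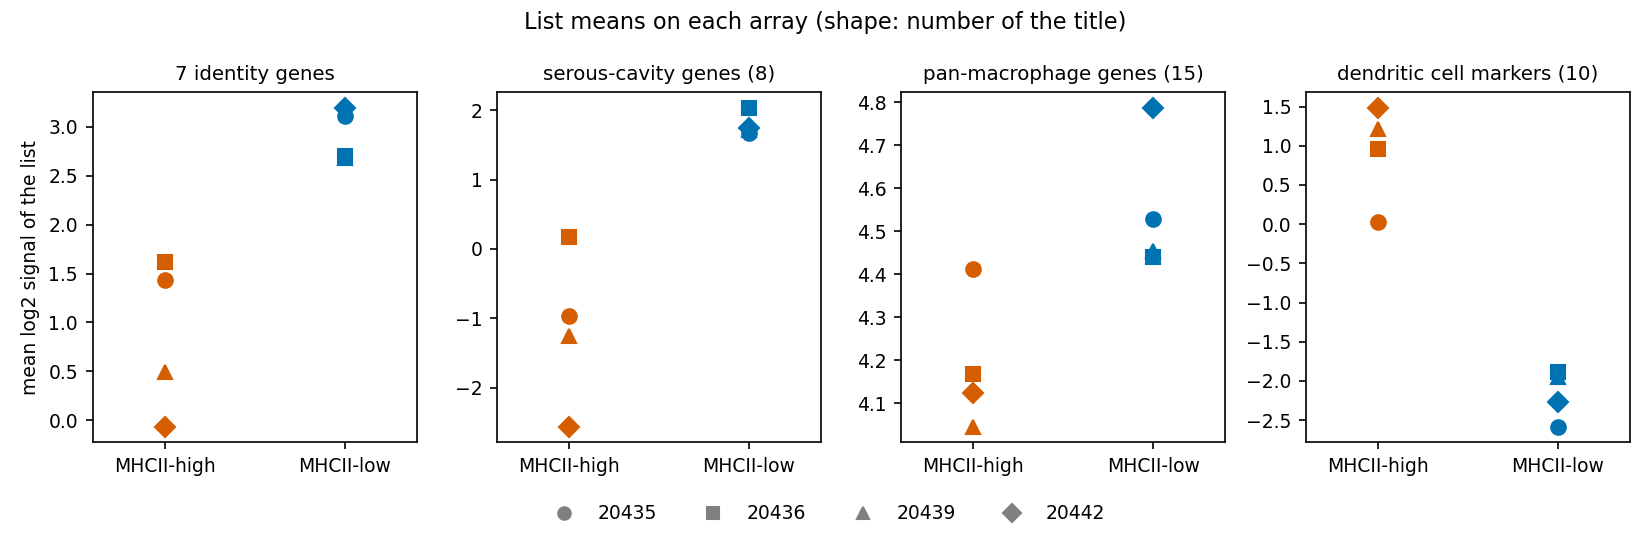
Mean log2 signal, relative to the array's 75th percentile, of the 7 identity genes, 8 serous-cavity genes, 15 pan-macrophage genes and 10 dendritic cell markers on each array, with MHCII-high (orange) left of MHCII-low (blue) and a marker shape for each number. The groups do not overlap in any panel, and the vertical scale differs between panels.

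The genes whose pattern over the 8 arrays came nearest to each gene that passed were sought among 17472 genes with a RefSeq symbol that were well above background on all 8 arrays, by the root mean square difference of log2 levels after each gene was centred on its mean. Nearest to Folr2 were Padi4 (0.13), a citrullinating enzyme, C4a (0.19), a complement component, and Car6 (0.20), a carbonic anhydrase. Nearest to Cbr2 were S1pr1 (0.26), Ednrb (0.29) and Folr2 itself (0.29), whereas Cbr2 was not among the 3 nearest to Folr2. Cd5l was nearest to Lepr (0.48), Alox15 (0.51) and Prg4 (0.52), the last pair from the serous-cavity list, and Wwp1 to Tspan4 (0.14), Rhobtb1 (0.15) and Nhsl2 (0.17). Genes with small differences between groups lie close to many others on this measure, and it is a description of these 8 arrays.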

How the data were processed

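The processed intensity of each spot, on a linear scale in 1 colour (Cy5), was deposited as Agilent Feature Extraction 11.5.1.1 output, by the submitters' processing notes and per the file headers. Per the file headers, background subtraction and spatial detrending were already in that signal, with surrogate values for dim spots. The deposited series table holds log2 values whose making is not given in the sources used here. Its columns had medians of 9.38137 to 9.38149 and correlated at 0.998 or higher with the log2 processed signal of their own array, so scale and direction are those of that signal, with genes not centred.

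Of 62976 spots, 3671 controls and the spots marked as outliers (67 to 160 per array) were left out, and 0 were saturated. Log2 processed signal minus the 75th percentile of its array was averaged per probe. The 41187 probes that rose well above background in 4 or more of the 8 arrays were kept, each gene was represented by its brightest probe, and 28003 genes entered limma 3.58.1 (lmFit, then eBayes, under R 4.3.3) with the group as the only term. P-values were two-sided, with Benjamini-Hochberg adjustment across every gene tested. The fit was tested on simulated data. The number of arrays limits the precision. Names came from RefSeq GRCm38.p6 where an identifier or symbol matched, and 12765 of 56605 probes kept the name in the files. Where a whole group was too dim to measure, the fold given is a bound, taken against the dimmest measurable signal of each array or the probe's own signal if that was higher.

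The members and lists were chosen with earlier results of these data known. All 7 genes are described with every probe. For each other list the text names up to 5 genes with the largest change among those that passed and up to 3 of the brightest that did not, the rest standing only in counts and medians, and some results are not reported here. Alternatives covered background correction, normalization, the deposited table, filters, probe choice, slide row, title numbers and each array left out. Arrays of the same number correlated across groups, in deviations from group means, at 0.188, 0.127, 0.21 and 0.0834. These values do not exclude pairing, but no label states it, so the main fit did not take the numbers as pairs.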

Additional observations from a re-analysis of the deposited data

Results flagged for a closer look

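In the brightest Wwp1 probe, MHCII-low 20436 read 0.89, apart from the other MHCII-low arrays, whose nearest was 1.44. Its gap was 0.858 of the group's range, above the critical value of 0.829 for 4 samples. Of the 20 sets of 4 values examined, over 10 probes and both groups, it was 1 such case, and chance gives about 1 in 20. It remained above all 4 MHCII-high arrays, and without it the log2 fold change of Wwp1 was -1.52.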

How the results depend on the processing

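The fold changes of the 7 identity genes stayed negative in every alternative that tested them, from -4.19 to -3.03 for Lyve1 and from -3.80 to -3.39 for Cd5l over the settings with 8 arrays. Cd5l and Wwp1 passed in each. The filter for signal well above background on all 8 arrays left Lyve1 untested, as its probe reached that on 7. Because the groups did not overlap, refits of the same signals could not change the sign. Other background corrections, normalizations, the deposited table, filters and probe rules changed the call of 1 identity gene, Lyve1, which passed with normexp (-3.03). Fitting every probe on its own gave 2129 calls over probes (1014 lower, 1115 higher in MHCII-high), against 1378 over genes (644 lower, 734 higher). The slide row as a block gave 452 (155 lower, 297 higher) of which 428 were among the 1378, and 2 of 4 identity genes, with Folr2 at -1.80 and Cbr2 at -1.86 no longer past the threshold. The cause of that loss was not tested.

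The replicate block, with the title number as a term, gave 818 calls (336 lower, 482 higher) and changed no call of an identity gene. Whether the numbers pair the samples is not settled by the correlations given under processing. They were small, down to 0.0834 for 20442, yet each array correlated best with its own number across the groups. That is a hint from the data and not the design. With each array left out in turn, calls ranged from 549 to 1154 (245 to 521 lower, 304 to 633 higher), fewest without MHCII-high 20439. Identity genes past the threshold ranged from 2 to 4, with 2 left without MHCII-high 20439 or MHCII-low 20435. Fold changes ranged from -4.82 to -2.82 for Lyve1, -2.22 to -1.76 for Folr2, -2.22 to -1.63 for Cbr2, -4.19 to -3.41 for Cd5l, -0.56 to -0.42 for Sepp1, -1.52 to -1.23 for Wwp1 and -0.82 to -0.53 for Mrc1. Fits of the second Cbr2 probe and the further Wwp1 probes with the row, the numbers or an array left out were chosen after seeing the data, and the row ended the calls of the junction-spanning and the dimmest Wwp1 probes (adjusted p = 0.0502 and 0.0909). The dimmest also lost its call with the numbers (adjusted p = 0.0504) and without any 1 of 4 arrays (largest adjusted p = 0.0612). Dim signal limits Lyve1 most, with 1 MHCII-high array not well above background.

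Among the other genes named as passing, Ctsd, Pdpn, Layn, Stab1, Hyal2, Chil4, Msr1, Marco, Cd6, Slc40a1, Gata6, Cdh1 and Ccr3 lost their call without at least 1 array, with largest adjusted p-values from 0.0513 (Msr1) to 0.133 (Stab1). Fitting the row as a block took the call from those genes and from Fcna, Ednrb, Prg4, Clec9a and Cldn5, with adjusted p-values from 0.0537 (Cldn5) to 0.166 (Gata6). With normexp background correction Cemip2 lost its call (adjusted p = 0.216).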
